A study of Mus musculus with 18 samples.

Results

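Fos, Fosb, Fosl1, Fosl2, Jun, Junb, Jund, Atf3, Egr1 and Egr2 are early response transcription factors, and their RNA was followed in mouse bone marrow-derived macrophages (BMDMs) as 10 of the 21734 protein-coding genes of the count table, matched by gene symbol. They were chosen as a family by name, with the strong fall of Fosb after LPS already known. The macrophages came from mice with the normal miR-146a gene (WT), from knockout mice that lack it (KO), and from mice whose miR-146a has its 3′ part, outside the seed, swapped (3′F), all of mixed 129/B6 strain and 6 to 7 months of age. The study gives a younger age for its mass spectrometry lysates, although it describes each replicate as split between sequencing and mass spectrometry. Marrow cells of 3 mice per genotype were grown for 8 to 9 days in 10 ng/ml M-CSF, given fresh medium with or without 1 ng/ml LPS, a bacterial lipopolysaccharide that signals through TLR4, and harvested 16 h later. This gave 6 groups of 3 libraries, WT, KO and 3′F, each resting or with LPS. The resting cells thus had the same change of medium as the LPS cells. Both mutations are carried in the germ line and act in every cell of the mouse, and the cells are a culture grown from marrow.

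AP-1 is a dimer of basic leucine zipper proteins. FOS proteins pair with JUN proteins, and JUN proteins can also pair with each other or with ATF proteins, and the choice of partner sets which DNA site is bound and how strongly. Genes such as Fos, Egr1 and Atf3 are immediate early genes: MAP kinases and the serum response factor switch them on within minutes of a stimulus without new protein synthesis, and their short-lived RNA is then lost, so that a sample taken many hours later shows the late phase. In macrophages, AP-1 acts with NF-κB on inflammatory genes, Atf3 restrains several of them, and Egr1 and Egr2 take part in macrophage maturation. miR-146a is itself induced by NF-κB and lowers TLR signalling, and Irak1 and Traf6 were the targets first described for it.

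The mature WT microRNA and the synthetic 3′F strand that the study used as its mimic are shown to make the genotypes concrete. The WT sequence is the RefSeq entry (mm10, chr11:43374435-43374456, minus strand), the mimic comes from the study's oligonucleotide list without its 3′ dT pair, and capitals mark the seed, bases 2 to 8.
miR-146a: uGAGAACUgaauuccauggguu
3′F mimic: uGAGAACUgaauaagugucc
The seed is the same in both, and the first base that differs is base 13, counted from the 5′ end. A match to this seed of 7 or 8 bases was looked for in the longest annotated 3′ UTR of each gene. Of the 10 factors, 1 had a match, Fosl2, while 18.3% of 20920 genes had one. The Fosl2 match lies at chr5:32156449-32156455 (mm10, plus strand, 3′ UTR), and capitals mark the seed match.
Fosl2 site: gaaggggccaccttAGTTCTCatagaaat

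The start-site regions of 5 factors are shown because their RNA moved with LPS. RefSeq start sites (GRCm38.p6, the mm10 assembly) were used for 8 of the 10 factors. None was found for Fosl1, and Egr1 was left out of the search by choice, so its region is not reported here. Each line holds the 250 bases upstream of the start, read 5′ to 3′ on the gene's strand. The regions are chr12:85473640-85473889 (plus strand) for Fos, chr7:19310046-19310295 (minus) for Fosb, chr4:95052223-95052472 (minus) for Jun, chr1:191183334-191183583 (minus) for Atf3 and chr10:67537619-67537868 (plus) for Egr2, for which the entry at the annotated principal start was taken from 5. Capitals mark matches, on either strand, to the cAMP response element half-site TGACG, to the jun1 element TGACATCA, to the CArG box bound by serum response factor and to the TATA box TATAAA.
Fos: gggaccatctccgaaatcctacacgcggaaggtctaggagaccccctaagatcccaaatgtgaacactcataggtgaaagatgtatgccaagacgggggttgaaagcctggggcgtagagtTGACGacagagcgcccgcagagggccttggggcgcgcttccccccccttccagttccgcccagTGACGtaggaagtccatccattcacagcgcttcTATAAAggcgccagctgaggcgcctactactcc
Fosb: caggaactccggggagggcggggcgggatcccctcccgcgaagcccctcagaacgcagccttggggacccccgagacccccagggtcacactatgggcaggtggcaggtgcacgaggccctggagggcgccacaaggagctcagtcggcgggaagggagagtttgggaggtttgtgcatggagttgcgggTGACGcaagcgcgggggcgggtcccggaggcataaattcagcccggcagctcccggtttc
Jun: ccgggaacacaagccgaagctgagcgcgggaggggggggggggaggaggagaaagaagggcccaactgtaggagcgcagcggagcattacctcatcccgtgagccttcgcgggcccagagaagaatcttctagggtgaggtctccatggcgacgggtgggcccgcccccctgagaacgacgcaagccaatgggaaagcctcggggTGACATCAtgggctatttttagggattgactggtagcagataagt
Atf3: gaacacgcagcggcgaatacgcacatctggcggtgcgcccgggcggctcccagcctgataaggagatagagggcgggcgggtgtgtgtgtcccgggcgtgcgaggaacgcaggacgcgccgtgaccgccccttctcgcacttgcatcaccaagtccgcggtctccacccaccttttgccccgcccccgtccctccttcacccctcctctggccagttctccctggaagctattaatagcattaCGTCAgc
Egr2: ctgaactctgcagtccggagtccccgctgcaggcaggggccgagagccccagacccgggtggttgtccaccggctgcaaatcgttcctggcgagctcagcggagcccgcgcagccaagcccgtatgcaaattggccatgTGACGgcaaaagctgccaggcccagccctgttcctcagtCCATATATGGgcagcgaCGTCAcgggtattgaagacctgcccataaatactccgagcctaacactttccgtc
The half-site TGACG occurred at 129 and 66 bases upstream of the Fos start, at 60 in Fosb, at 7 in Atf3 and at 111 and 55 in Egr2, and also at 106 in Junb, so that 5 of the 8 regions held it, against 17.8% of 32851 RefSeq start-site regions of the same length. The jun1 element lay 45 bases upstream of the Jun start and occurs in 2.93% of all regions. The CArG box of Egr2 lay at 72 and occurs in 1.47% of all regions, and the TATA box of Fos lay at 33 and occurs in 12.4%. The complete cAMP response element TGACGTCA, the classical AP-1 site TGACTCA and the EGR site GCGTGGGCG were in none of the 8 regions, and occur in 1.55%, 4.46% and 0.536% of all regions. The starts used for Fosl2 and Jund, whose regions held no match, lay 671 and 1210 bases from their annotated principal starts. The absence of motifs there thus does not speak for the region at the principal start. These are matches of letters and were not tested as binding sites.

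Libraries held from 4071084 to 19818043 counts. Macrophage markers (Adgre1, Csf1r, Cd68, Itgam under 2 gene IDs, Lyz2, Mertk, Fcgr1 and Cd14) summed to between 31773 and 87901 CPM (counts per 1000000 of library size, scaled by TMM) in all 18 libraries. Summed markers of neutrophils were between 1.75 and 12.4 CPM, of T cells between 0.376 and 3.14, of fibroblasts between 0.197 and 3.51, and of B cells, erythroid and mast cells at most 1.17, with Cd3e and Fcer1a at 0 counts in every library. The most neutrophil marker RNA was in a KO library with LPS and the most T cell marker RNA in resting KO replicate 3. In bulk RNA, fewer cells of a type and less RNA per cell cannot be told apart. Both libraries that stood apart were resting. Resting KO replicate 3 had a quality weight of 0.168 in limma-voom, and resting 3′F replicate 3 had 0.149 and the lowest depth, whereas the other 16 libraries had weights from 0.302 to 2.67. The labels name no batch. Results that rest on them are given with and without them, and leaving out both was chosen after their values were seen.

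All 10 factors passed the filter on low counts. Levels are compared between genes as CPM per kb of exon. In resting WT cells Junb had 117 ± 24.4 CPM per kb (SD, n = 3), Fos 91.3 ± 13.3 and Atf3 88.9 ± 3.94, and the ranges of neighbours in this order overlapped. Jund stood at 53.4 ± 9.14 and Jun at 36.6 ± 1.82 CPM per kb. Egr2, Fosl2, Fosb and Egr1 were far lower, at 7.17 ± 0.450, 6.66 ± 0.851, 1.83 ± 0.366 and 1.59 ± 0.606 CPM per kb, and Fosl1, with 0 to 19 counts per library in the whole series, was the lowest at 0.411 ± 0.189. Junb, an AP-1 partner that often restrains proliferation, and Atf3 thus led with Fos in unstimulated macrophages. With LPS the WT order was Junb at 137 ± 15.3, Atf3 at 128 ± 21.9, Fos at 55.9 ± 8.85 and Jund at 54.4 ± 2.56 CPM per kb.

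**Figure D1:**
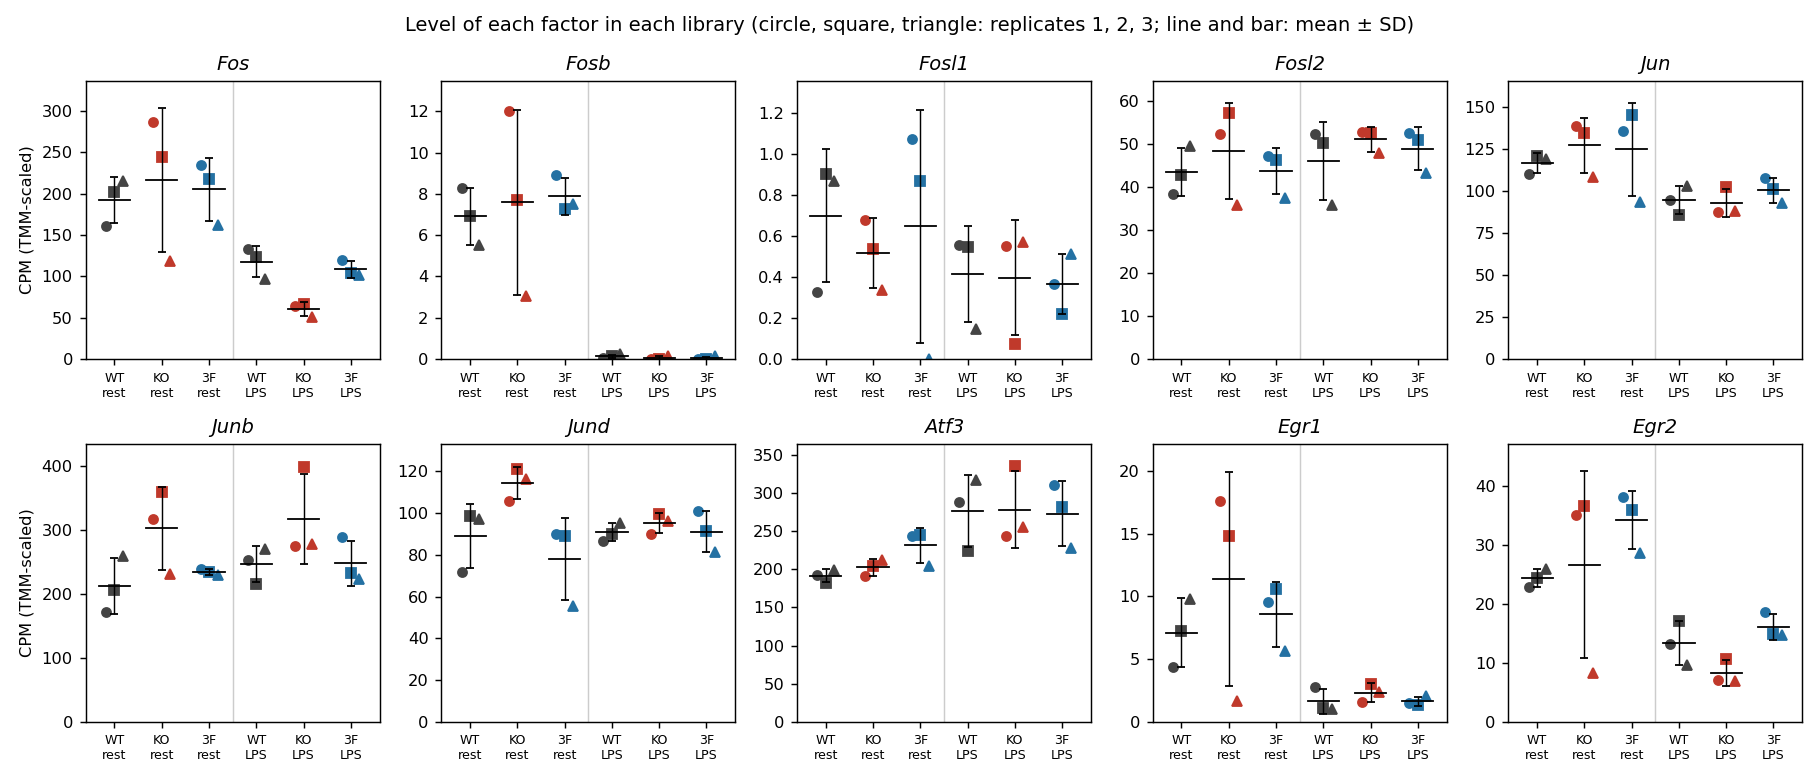
Level of each of the 10 factors in each of the 18 libraries, in TMM-scaled CPM on linear axes from 0, with the mean and SD of each group of 3. Fosb nearly disappears with LPS in each genotype, the LPS levels of Fos are lowest in KO, and the triangle of resting KO, replicate 3, lies below the other resting libraries for Fos, Fosb, Egr1 and Egr2.

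FOS family members cannot pair with themselves and act through JUN partners. Fos (ENSMUSG00000021250, chr12:85473890-85477273, plus strand) stood at 161, 201 and 215 CPM in the resting WT libraries and at 133, 124 and 96.9 with LPS. In KO it stood at 286, 244 and 119 CPM resting and at 64.4, 67.0 and 50.9 with LPS. In 3′F it stood at 235, 217 and 162 CPM resting and at 120, 103 and 101 with LPS. In each genotype every LPS library was below every resting library, and the 3 KO libraries with LPS were below all other libraries. Fos fell with LPS by 0.71 ± 0.24 (SE) on the log2 scale in WT, with an adjusted p of 0.0396 in the edgeR quasi-likelihood test. It fell by 1.83 ± 0.25 in KO (adjusted p = 5.3e-05, edgeR) and by 0.92 ± 0.25 in 3′F (0.0096). The call in WT was lost without any 1 of 5 of the 6 WT libraries (all but resting replicate 1), with adjusted p up to 0.160, and the calls in KO and 3′F were kept without any 1 library. Summed neutrophil markers went from 2.51 to 3.92 CPM resting to 5.16 to 6.01 with LPS in WT and from 2.53 to 4.89 to 5.10 to 12.4 in KO, without overlap, and overlapped in 3′F (1.75 to 7.49 and 3.88 to 4.16). The 1 T cell marker tested was called lower with LPS in each genotype, and the 1 fibroblast marker tested was called higher (edgeR). The part of these markers in the LPS responses of the 10 factors was not tested.

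With LPS, Fos was also lower in KO than in WT, by 0.96 ± 0.25 on the log2 scale, with an adjusted p of 0.0362 (edgeR), and the 3 KO libraries did not overlap the 3 WT libraries. This call was lost without any 1 of 5 of the 6 libraries (all but WT replicate 3), with log2 differences from −1.08 to −0.84 and adjusted p between 0.0392 and 0.134. Against 3′F with LPS, KO was lower by 0.83 ± 0.25 with an adjusted p of 0.0721 (edgeR), which misses the threshold, and these libraries did not overlap either. A block that joins equal replicate numbers across genotypes, which are different mice, gave an adjusted p of 0.0387 (edgeR). Without the resting KO and 3′F libraries that stood apart, the difference was −0.97 against WT (adjusted p = 0.00043, edgeR) and −0.85 against 3′F (0.0015). Both comparisons involve LPS libraries only, and the libraries left out entered them through the shared estimate of spread. With LPS the summed macrophage markers were at 71190 to 87901 CPM in KO and 45544 to 59937 in WT, and the T cell markers at 0.620 to 0.941 and 0.478 to 0.586 CPM, without overlap in either list, while the neutrophil markers were at 5.10 to 12.4 and 5.16 to 6.01 CPM. Of the 9 macrophage entries 0 were called higher and 1 lower in KO, of the 4 neutrophil and 1 T cell markers tested 0 were called, and their part in the result was not tested. The LPS response of Fos in KO minus that in WT was −1.13 ± 0.35, with an unadjusted p of 0.0049 and an adjusted p of 0.563 (edgeR), and −1.46 ± 0.21 with an adjusted p of 0.0063 without those libraries. In resting cells Fos did not pass between KO and WT (log2 difference 0.17 ± 0.24, adjusted p = 0.741, edgeR) but did without those libraries (0.49, 0.0427), and resting KO replicates 1 and 2 together had 2.24 times the CPM of replicate 3.

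Fosb (ENSMUSG00000003545, chr7:19302696-19310051, minus strand), a close relative of Fos that is made in long and truncated forms, was picked with its fall known, so its LPS response is described and not tested. It had 126, 92 and 57 counts in the resting WT libraries and 1, 2 and 3 with LPS. In KO it had 194, 101 and 27 counts resting and 0, 0 and 2 with LPS, and in 3′F 158, 125 and 32 resting and 0, 0 and 1 with LPS. Every LPS library was thus at or under 3 counts. The CPM that 3 counts make in the LPS libraries served as a floor. The mean resting level was 6.91 ± 1.38 CPM in WT (SD, n = 3), 7.58 ± 4.48 in KO and 7.88 ± 0.904 in 3′F. In this order the means were 32.7, 35.7 and 30.8 times the floor of their genotype. Resting KO replicate 3 was lower, at 3.03 CPM. Such ratios are descriptions and not lower bounds of the fall. Whether genotypes differ in Fosb after LPS was not detectable at this depth. In resting cells Fosb in KO and 3′F overlapped WT, with log2 differences of 0.16 ± 0.38 and 0.19 ± 0.39 (adjusted p = 0.861 and 0.930, edgeR).

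The remaining FOS members behaved differently. Fosl2 (ENSMUSG00000029135, chr5:32135801-32157842, plus strand), which encodes Fra-2 and carries the only seed match among the 10 factors, ranged from 35.7 to 57.1 CPM over all 18 libraries, and its libraries overlapped in every comparison of a pair of groups made here. Its LPS responses were 0.08 ± 0.17 in WT, 0.07 ± 0.17 in KO and 0.16 ± 0.17 in 3′F on the log2 scale, and its difference between KO and WT was 0.16 ± 0.17 resting and 0.15 ± 0.17 with LPS, with adjusted p of at least 0.511 in these 5 comparisons (edgeR). Resting KO stood at 52.4, 57.1 and 35.8 CPM and resting WT at 38.4, 42.8 and 49.4. Without both libraries that stood apart, KO exceeded WT at rest by 0.36 ± 0.15 (unadjusted p = 0.0269, edgeR). That difference did not pass either (adjusted p = 0.116), and with LPS it was 0.13 ± 0.13 (0.562). Fosl1 (ENSMUSG00000024912, chr19:5447547-5455946, plus strand), which encodes Fra-1, had at most 1.07 CPM and passed in no comparison of the edgeR fit over all 18 libraries. Its LPS response was −0.69 ± 0.68 in WT, −0.42 ± 0.71 in KO and −1.22 ± 0.71 in 3′F, and intervals this wide leave sizeable changes possible. limma-voom quality weights called the response of Fosl1 in 3′F (−1.37, adjusted p = 0.0374). Without both libraries that stood apart it was −1.56 ± 0.62 and did not pass (adjusted p = 0.0622, edgeR).

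The make-up of the FOS family followed from these levels. As a share of the family's summed counts per kb, Fos was 90.3% to 91.5% in resting WT libraries and 88.0% to 89.1% with LPS. In KO it was 89.7% to 92.1% resting and 75.8% to 79.7% with LPS, and in 3′F 90.9% to 91.6% resting and 86.1% to 87.4% with LPS. The share of Fosl2 went from 6.66% ± 0.352 to 11.1% ± 0.467 in WT (SD, n = 3), from 7.02% ± 1.65 to 21.3% ± 1.49 in KO and from 6.32% ± 0.417 to 12.7% ± 0.881 in 3′F. These shares are descriptions with no test, and they do not depend on how libraries are scaled. In the JUN family Junb held the largest share in every library, at 56.3% ± 3.22 in resting WT and 61.8% ± 1.91 with LPS, Jund 25.8% ± 1.99 and 24.8% ± 1.89, and Jun 17.9% ± 2.22 and 13.4% ± 0.0743.

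**Figure D2:**
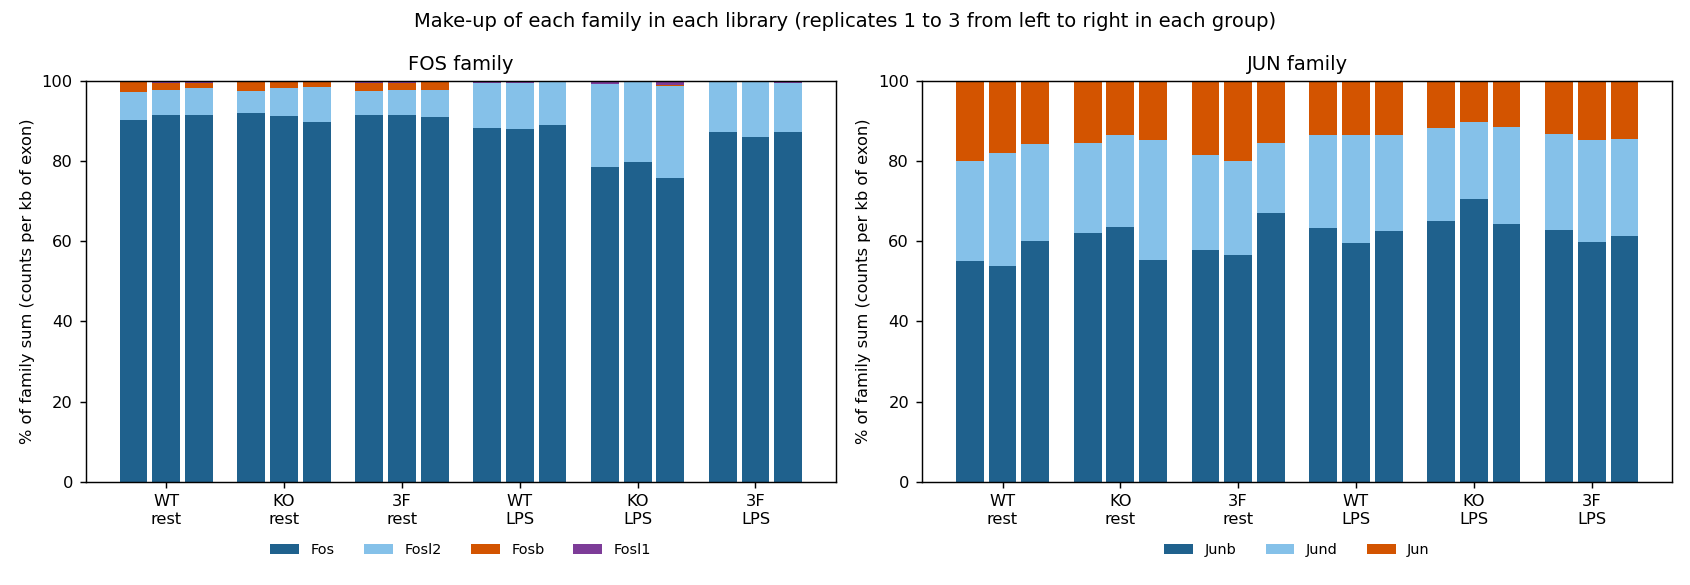
Share of each member in the summed counts per kb of exon of its family, in percent, 1 bar per library, with replicates 1 to 3 from left to right. Fos fills most of the FOS bars, and Fosl2 takes 20.2% to 23.0% in the 3 KO libraries with LPS against 10.6% to 11.5% in WT.

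JUN proteins are the partners of every FOS protein. Jun (ENSMUSG00000052684, chr4:95049034-95052222, minus strand) was at 110, 121 and 119 CPM in resting WT and at 94.6, 85.9 and 103 with LPS. In KO it was at 139, 134 and 109 CPM resting and at 87.7, 102 and 88.3 with LPS, and in 3′F at 135, 145 and 93.4 resting and at 107, 101 and 92.7 with LPS. WT and KO libraries did not overlap between resting and LPS, and those of 3′F did. Jun fell with LPS in KO by 0.46 ± 0.14 on the log2 scale, with an adjusted p of 0.0267 (edgeR), a call lost without 4 of the 6 libraries in turn (resting replicates 1 and 2, LPS replicates 1 and 3, with adjusted p up to 0.112). Its responses of −0.31 ± 0.14 in WT and −0.32 ± 0.14 in 3′F missed the threshold (adjusted p = 0.127 and 0.105, edgeR). Without both libraries that stood apart they were −0.34 ± 0.08 and −0.52 ± 0.09, with adjusted p of 0.0044 and 0.00042, and in KO −0.63 ± 0.09 (5.4e-05).

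Junb (ENSMUSG00000052837, chr8:84974484-84978718, minus strand) was at 172, 206 and 259 CPM in resting WT, 317, 360 and 232 in resting KO and 239, 234 and 229 in resting 3′F. With LPS it was at 254, 216 and 270 CPM in WT, 275, 398 and 278 in KO and 289, 234 and 223 in 3′F. All 3 KO libraries with LPS were above the 3 of WT, and the resting groups overlapped. No difference of Junb passed: KO against WT gave 0.52 ± 0.19 resting (adjusted p = 0.0980, edgeR) and 0.36 ± 0.19 with LPS (0.332). Without resting KO replicate 3 and resting 3′F replicate 3 the resting difference was 0.70 ± 0.18 with an adjusted p of 0.0174.

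Jund (ENSMUSG00000071076, chr8:70698949-70700616, plus strand), the JUN member whose RNA is usually least inducible, was at 71.5, 98.7 and 97.1 CPM in resting WT and at 86.8, 90.1 and 95.3 with LPS. In KO it was at 106, 121 and 116 CPM resting and at 90.0, 99.6 and 96.1 with LPS, which did not overlap, and the response of −0.26 did not pass (adjusted p = 0.239, edgeR) but did without both libraries that stood apart (−0.33, 0.0439). Resting KO exceeded resting 3′F, at 89.9, 88.9 and 55.5 CPM, by 0.54 ± 0.16 on the log2 scale, with an adjusted p of 0.0369 (edgeR). The low value is that of resting 3′F replicate 3, without which the difference was 0.36 ± 0.13 (adjusted p = 0.103). The call was also lost without resting KO replicate 2 (0.0856) or 3 (0.0722), without TMM scaling (0.0685) and with the compared groups alone (0.267). The resting KO libraries were above the 3 of WT too, by 0.36 ± 0.16, which did not pass (adjusted p = 0.179, edgeR).

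Atf3 (ENSMUSG00000026628, chr1:191170296-191218039, minus strand), a stress-induced repressor of TLR-driven genes, was the factor that rose. It was at 193, 182 and 199 CPM in resting WT and at 288, 224 and 317 with LPS, an increase of 0.53 ± 0.15 on the log2 scale with an adjusted p of 0.0147 (edgeR). In KO it was at 191, 204 and 213 CPM resting and 244, 336 and 256 with LPS, an increase of 0.46 ± 0.15 (adjusted p = 0.0324, edgeR). In 3′F it was at 244, 246 and 205 CPM resting and 310, 282 and 227 with LPS, where the groups overlapped and the response of 0.24 ± 0.15 did not pass (adjusted p = 0.236, edgeR). The responses of the genotypes were not shown to differ, since 3′F minus WT was −0.29 ± 0.21 and KO minus WT −0.07 ± 0.21 (adjusted p = 0.975 and 1.00, edgeR). The call in WT was lost without LPS replicate 1 or 3 or resting replicate 2 (adjusted p up to 0.0825), and that in KO without LPS replicate 2 (0.25, adjusted p = 0.293) or resting replicate 1 or 2 (0.111 and 0.0786). Both were lost without TMM scaling, at 0.27 and 0.17, and that in KO also without a low-count filter (adjusted p = 0.106), with a CPM of at least 1 in 3 libraries as the filter (0.0564) and with the compared groups alone (0.0798).

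EGR factors are zinc finger proteins that bind GC-rich sites and are induced by the same kinases as Fos. Egr1 (ENSMUSG00000038418) was at 4.34, 7.23 and 9.77 CPM in resting WT and at 2.79, 1.09 and 1.03 with LPS. In KO it was at 17.6, 14.8 and 1.68 CPM resting and at 1.58, 3.04 and 2.35 with LPS, and in 3′F at 9.54, 10.5 and 5.62 resting and at 1.47, 1.37 and 2.05 with LPS. Resting and LPS libraries were apart in WT and 3′F and overlapped in KO through resting KO replicate 3, where Egr1 was as low as with LPS. Egr1 fell with LPS in each genotype, with log2 changes of −2.10 ± 0.61 in WT (adjusted p = 0.0172, edgeR), −2.32 ± 0.58 in KO (0.0071) and −2.49 ± 0.63 in 3′F (0.0068). The call in WT was lost without LPS replicate 2 or 3 or resting replicate 3 (adjusted p up to 0.0767), and that in KO with the compared groups alone (0.0647). Resting KO replicates 1 and 2 together had 9.63 times the Egr1 of replicate 3. T cell markers summed to 3.14 CPM in that library, with Cd3e at 0, and to between 0.376 and 1.45 CPM in resting WT, and their part in the result was not tested. The resting difference between KO and WT was 0.72 ± 0.53 (adjusted p = 0.463, edgeR) and 1.24 ± 0.32 (0.0188) without both libraries that stood apart.

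Egr2 (ENSMUSG00000037868, chr10:67535475-67542188, plus strand) was at 22.9, 24.3 and 25.9 CPM in resting WT and at 13.2, 17.1 and 9.68 with LPS. In KO it was at 35.0, 36.6 and 8.31 CPM resting and at 7.02, 10.7 and 6.92 with LPS, and in 3′F at 38.0, 36.0 and 28.6 resting and at 18.7, 15.0 and 14.6 with LPS. As for Egr1, resting KO replicate 3 lay within the KO range with LPS, while WT and 3′F were apart. Egr2 fell by 1.71 ± 0.38 in KO (adjusted p = 0.0029, edgeR) and by 1.10 ± 0.36 in 3′F (0.0315). The call in KO was lost with the compared groups alone (0.0558). The call in 3′F was lost without 5 of the 6 libraries in turn (all but resting replicate 3), with adjusted p up to 0.0998. In WT the response of −0.87 ± 0.36 missed the threshold (adjusted p = 0.0884, edgeR), and it passed with a replicate block (−0.89, 0.0462) and without the libraries that stood apart (−0.90 ± 0.18, 0.0011). With LPS, Egr2 in KO did not overlap 3′F, at a log2 difference of −0.97 ± 0.38 (adjusted p = 0.185, edgeR), and of −0.99 ± 0.19 (0.0047) without those libraries. Against WT it was −0.70 ± 0.38 (0.359) and −0.72 ± 0.20 (0.0223).

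**Figure D3:**
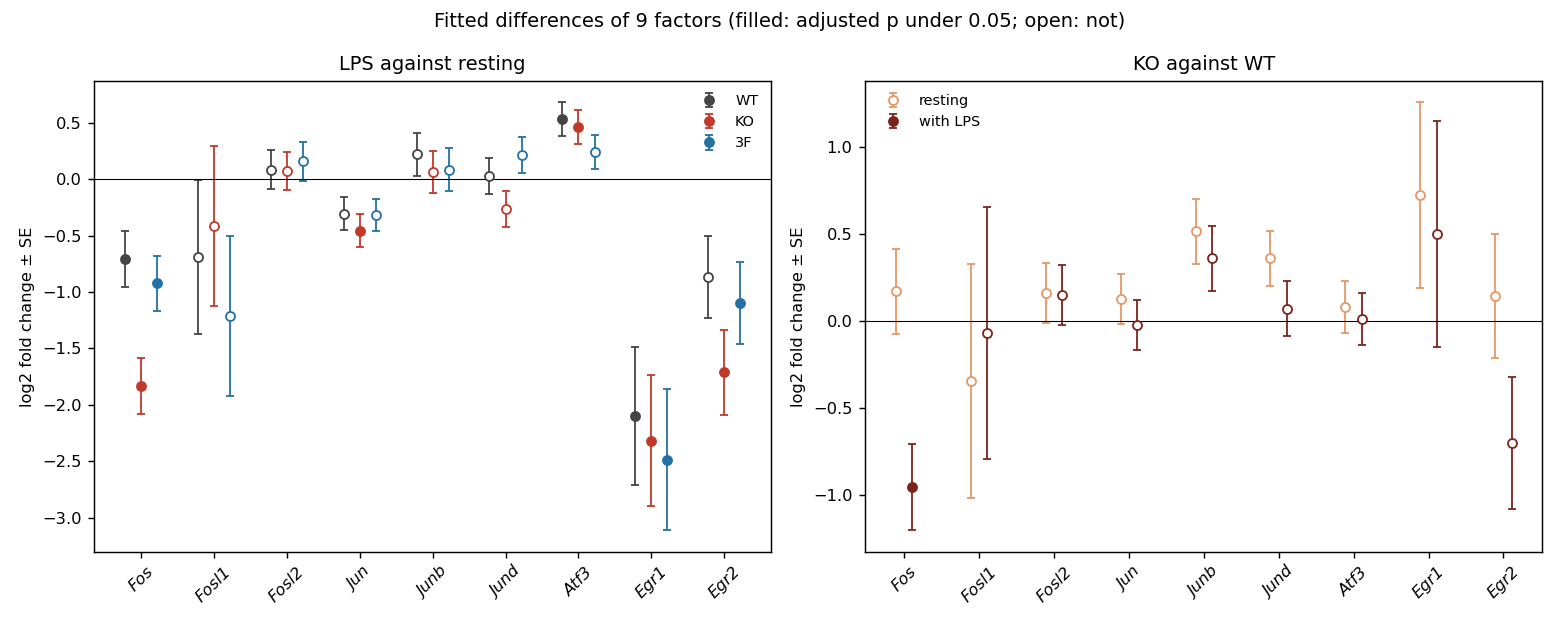
Log2 fold change with its SE for 9 factors (Fosb left out), LPS against resting in each genotype on the left and KO against WT on the right, with filled points for an adjusted p under 0.05 and open points for the rest. Fos and Egr1 lie below 0 with filled points in all 3 genotypes, Atf3 above 0 in WT and KO, and the only filled point for KO against WT is Fos with LPS.

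Counted over the 9 factors other than Fosb, the LPS response was called for 3 in WT (Fos and Egr1 lower, Atf3 higher), beside 28.5% of the 11357 genes tested. In KO 5 were called (Fos, Egr1, Egr2 and Jun lower, Atf3 higher), beside 26.9% of all genes, and in 3′F 3 (Fos, Egr1 and Egr2 lower), beside 31.2%. The shares in WT and 3′F are thus near those of all genes. The median response of the 9 was −0.31 in WT, −0.42 in KO and −0.32 in 3′F, where that of all genes was 0.02, 0.02 and −0.01. Of all 10 factors, KO against WT called 0 resting, beside 9.40% of all genes, and 1 with LPS (Fos), beside 4.79%. At an unadjusted p under 0.05, 2 factors passed in the resting comparison, Junb and Jund. KO against 3′F called 1 resting (Jund), beside 12.9%, and 0 with LPS, beside 3.88%, where Fos and Egr2 had unadjusted p under 0.05 and DESeq2 called Fos alone. 3′F against WT called 0 of 10, with 0 at an unadjusted p under 0.05, in resting cells, beside 0.00% of all genes, and with LPS, beside 0.00881%, and DESeq2 called 0 in both. All 3 resting 3′F libraries were above the 3 of WT for Atf3 and Egr2, with log2 differences of 0.27 ± 0.15 and 0.50 ± 0.36. Without both libraries that stood apart, the LPS response was called for 5 of the 9 factors in WT beside 41.9% of all genes, 6 in KO (Jund added) beside 44.2% and 4 in 3′F beside 35.1%. Of all 10 factors, KO against WT then called 3 resting beside 14.6% and 2 with LPS beside 14.2%, and KO against 3′F 0 resting beside 6.56% and 2 with LPS beside 12.2%. In that fit 3′F against WT called no factor in either state, beside 0.00876% of all genes in each. There resting Egr2 (0.61), Jun (0.27) and Atf3 (0.35), all higher in 3′F, had unadjusted p under 0.05 (edgeR). With all libraries, the 3′F to WT differences of the factors, other than those of Fosb with LPS, lay between −0.31 and 0.50 on the log2 scale. The LPS response of KO minus that of WT was called for 0 factors, beside 0.00881% of all genes, with only Fos at an unadjusted p under 0.05, and that of 3′F minus WT for 0, beside 0.00%, with 0 at an unadjusted p under 0.05. DESeq2 called 0 in both. Comparisons that share a group share its libraries and are not independent of each other.

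Within groups, Fos, Egr1, Egr2 and Fosl2 deviated together. Over the deviations of 18 libraries from their group means in log2 CPM, Pearson's r was 0.90 for Fos with Egr2, 0.89 with Fosl2 and 0.87 with Egr1, and 0.84 for Egr1 with Egr2, while Fos had 0.03 with Atf3 and 0.32 with Jund. Resting KO replicate 3, low for Fos, Egr1, Egr2 and Fosl2, is one of these points, and depth and RNA quality are shared by the genes of a library. In likeness over the 18 libraries, where the points share the contrast of resting and LPS groups, Egr1 was most like Dusp1 (r = 0.95), the MAP kinase phosphatase, and Rnf180 and Maml3 (both 0.93 to 0.94). Egr2 was most like Dusp5 (0.94), Smagp and Fos (both 0.92), Fos most like Gpr183 (0.96), C77080 and Pdgfa (both 0.95), and Fosb most like St6gal1, Cd300a and Pnpla7 (all 0.98). Jun was most like Frmd6 (0.94), Dnajb14 (0.93) and Rasgef1b (0.92), Junb like Pltp (0.84), Nfkbiz (0.82) and Tgif1 (0.81), Jund like Ssfa2 (0.95), Gas2l1 (0.92) and Trim8 (0.91), and Atf3 like Clip2 (0.94), Ccl4 (0.90) and Pafah1b2 (0.89). Fosl2 was most like Pprc1 (0.88), P2ry2 (0.85) and Traf3 (0.85), and Fosl1 like Pcm1 (0.87), Pds5a (0.85) and Dhcr7 (0.85).

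The other immediate early genes give the setting for Fos and the EGR factors. Of the 24 listed, 20 were tested (not Egr4, Nr4a3, Cyr61 and Ctgf), and with LPS in WT 5 rose and 4 fell, in KO 2 rose and 9 fell, and in 3′F 5 rose and 8 fell, with median responses of −0.05, −0.26 and −0.11. Over all genes 28.5%, 26.9% and 31.2% were called in these comparisons. Nr4a1, an orphan nuclear receptor, fell from 8.24 ± 2.50 to 1.80 ± 0.579 CPM in WT (SD, n = 3), a log2 change of −2.18 ± 0.47 with an adjusted p of 0.0026 (edgeR). Klf4, a zinc finger factor of macrophage differentiation, fell from 11.9 ± 3.96 to 5.09 ± 1.24 CPM (−1.22 ± 0.29, 0.0047). Gadd45b, a stress sensor that feeds the p38 pathway, rose by 1.15 ± 0.26 (0.0036) and Ier3 by 0.79 ± 0.21 (0.0091). Ier3 was also higher in KO than in WT, by 1.04 ± 0.21 resting (adjusted p = 0.0060, edgeR) and 0.78 ± 0.20 with LPS (0.0372), as was Sgk1 resting (0.69 ± 0.15, 0.0089), and Klf10 was lower in KO with LPS (−0.43 ± 0.11, 0.0373). Those were the calls of this list in KO against WT, 2 higher resting, beside 9.40% of all genes, and 1 higher and 1 lower with LPS, beside 4.79%. Without both libraries that stood apart 5 rose and 8 fell in WT, 2 and 10 in KO, 4 and 8 in 3′F, and KO exceeded WT at rest for 7. In that fit 41.9%, 44.2%, 35.1% and 14.6% of all genes were called in these comparisons. Egr3, a gene of low counts, was among those that fell there. Its log2 changes were −5.20 ± 0.92 in WT (adjusted p = 0.00030, edgeR), −3.09 ± 0.63 in KO (0.00091) and −3.49 ± 0.67 in 3′F (0.00078).

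**Figure D4:**
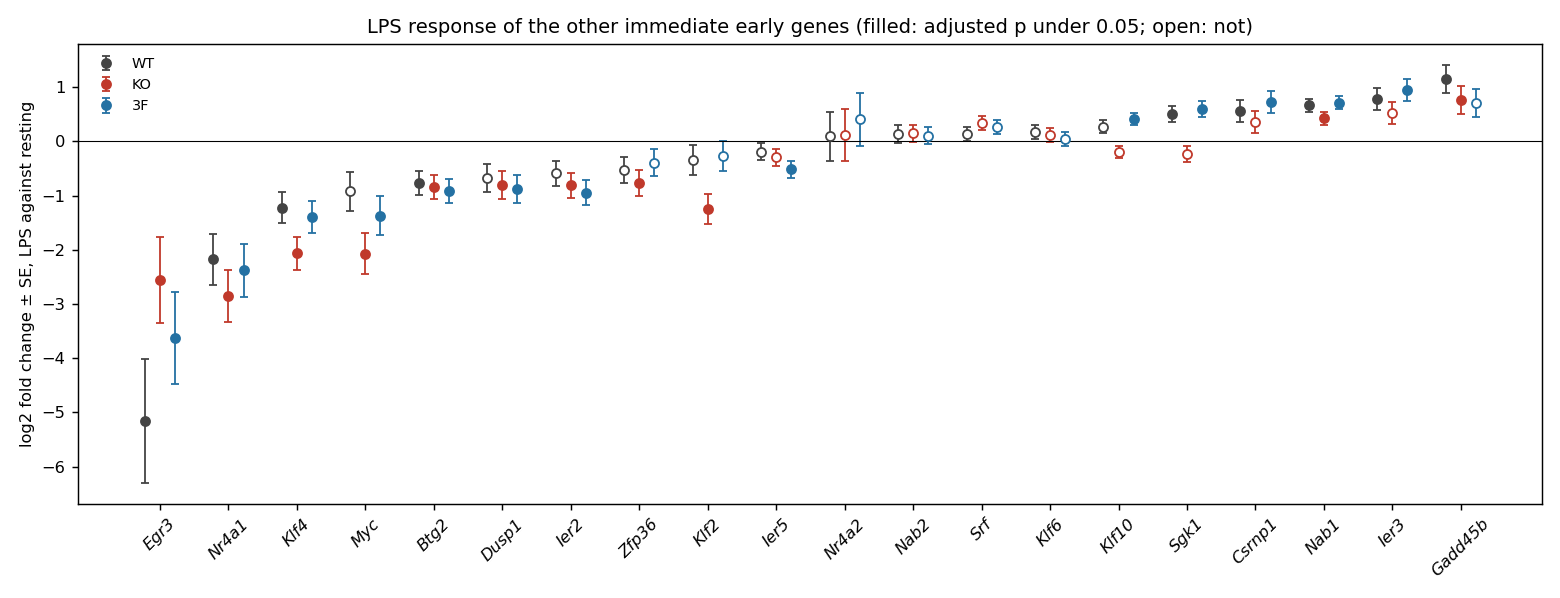
LPS response, as log2 fold change with its SE, of the 20 other immediate early genes tested, ordered by the value in WT, with filled points for an adjusted p under 0.05 and open points for the rest. Points spread from Egr3, a gene of low counts at the far left, past Nr4a1 and Klf4, below 0 in all genotypes, to Ier3 and Gadd45b, above 0.

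A list of 21 further bZIP factors, which also takes in Cebpb and Cebpd, was tested in full. Whether each binds AP-1 or cAMP response elements was not examined. With LPS, 8 rose in WT, 7 in KO and 8 in 3′F, and 0 fell in each, with median responses of 0.26, 0.33 and 0.34, beside 28.5%, 26.9% and 31.2% of all genes called in either direction. Batf2 rose from 0.729 ± 0.477 to 8.06 ± 3.41 CPM in WT (log2 change 3.54 ± 0.72, adjusted p = 0.0017, edgeR) and Batf, which pairs with JUN proteins, from 0.696 ± 0.0507 to 3.33 ± 1.16 CPM (2.24 ± 0.40, 0.00058). Batf stood at 8.15 ± 0.637 CPM in KO with LPS, above WT by 1.29 ± 0.32 (adjusted p = 0.0323, edgeR). Cebpd, another bZIP factor, exceeded its WT level in KO by 0.72 ± 0.18 resting (0.0168) and by 0.64 ± 0.17 with LPS (0.0408), and Cebpb by 0.90 ± 0.16 resting (0.0030). These were the calls of the list in KO against WT, 2 resting, beside 9.40% of all genes, and 2 with LPS, beside 4.79%. Without both libraries that stood apart 10 rose and 2 fell with LPS in WT, 9 and 5 in KO and 8 and 1 in 3′F, so that the absence of falls did not hold. Of all genes 41.9%, 44.2% and 35.1% were called in that fit.

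The MAP kinase cascade that leads to these factors was measured through 23 genes, all tested. With LPS, 8 rose and 0 fell in WT, 7 rose and 1 fell in KO, and 9 rose and 0 fell in 3′F, beside 28.5%, 26.9% and 31.2% of all genes called in either direction. Mapkapk2, the p38 effector kinase that stabilises cytokine mRNAs, rose from 286 ± 10.1 to 866 ± 22.1 CPM in WT (SD, n = 3), a log2 change of 1.60 ± 0.17 (adjusted p = 4.1e-06, edgeR), and Map3k8, the kinase that couples TLR4 to ERK, from 19.0 ± 3.14 to 47.7 ± 10.1 CPM (1.33 ± 0.17, 2.7e-05). In resting cells 5 genes of the list were higher in KO than in WT and 0 lower, beside 9.40% of all genes called, among them Mapkapk2 by 0.88 ± 0.16 (0.0042) and Map3k8 by 0.69 ± 0.17 (0.0170). With LPS 1 was higher in KO, Map3k5, by 0.73 ± 0.13 (0.0040), beside 4.79% of all genes called. Without both libraries that stood apart 8 rose and 4 fell with LPS in WT, 7 and 4 in KO and 8 and 0 in 3′F, and KO had 6 higher and 1 lower than WT resting and 5 and 1 with LPS. All genes called in that fit were 41.9%, 44.2% and 35.1% for the LPS responses and 14.6% and 14.2% for KO against WT.

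Genes that textbooks give as AP-1 targets moved in both directions. Of 14, all tested, 5 rose and 3 fell with LPS in WT and in 3′F, and 4 rose and 4 fell in KO, beside 28.5% of all genes called in WT, 31.2% in 3′F and 26.9% in KO. Timp1, an inhibitor of metalloproteinases, rose in WT by 5.04 ± 0.61 (adjusted p = 1.8e-05, edgeR) and Il1b by 4.33 ± 0.77 (0.00059), while Plau, the urokinase, fell from 874 ± 77.3 to 197 ± 13.9 CPM (−2.15 ± 0.23, 5.1e-06) and Ccnd1, cyclin D1, from 259 ± 11.6 to 176 ± 17.1 CPM (−0.55 ± 0.16, 0.0140). In KO with LPS, where Fos was lowest, 5 of the 14 were lower than in WT and 0 higher, beside 4.79% of all genes called (329 lower and 215 higher), with a median difference of −0.67 beside 0.01 for all genes. Ccnd1 stood at 57.3 ± 2.51 CPM there, a log2 difference of −1.62 ± 0.16 (adjusted p = 3.0e-05, edgeR), and Plau at 72.2 ± 6.82 CPM (−1.45 ± 0.22, 0.0017). Plau was also lower in resting KO, by 1.34 ± 0.22 (0.0025), as was Mmp12, macrophage elastase, by 1.17 ± 0.27 (0.0132), and Tnf was higher (0.83 ± 0.21, 0.0193), so that 1 gene was higher and 3 lower in the resting comparison, beside 9.40% of all genes called, at a median of 0.06. Without both libraries that stood apart 1 was higher and 5 lower there, at a median of −0.28, beside 14.6% of all genes called, and 2 higher and 6 lower with LPS, at −0.69, beside 14.2%. The LPS response in KO then had a median of 0.22, where it was −0.43 with all libraries. Whether these genes follow Fos was not tested.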

How the data were processed

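Directional libraries of ribosomal RNA-depleted total RNA were sequenced by the authors, who trimmed adapters with cutadapt 1.8.3, removed reads of ribosomal DNA, aligned the rest to mm10 with HISAT2 2.1.0 and used featureCounts 1.5.3 for strand-specific counting over Gencode M15 genes. The deposited table holds these raw counts for 21734 protein-coding genes, with an exon length per gene.

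Counts were analysed in R 4.3.3 with edgeR 4.0.16. The filterByExpr function kept 11357 genes. Counts were scaled by TMM (factors from 0.812 to 1.15), and 1 quasi-likelihood fit over all 18 libraries, with a coefficient per group, gave 11 comparisons, two-sided. The Benjamini-Hochberg adjustment ran over all 11357 genes, with calls under 0.05. A standard error is the log2 fold change divided by the square root of F. With 3 libraries against 3, an exact permutation test cannot go below 0.1. The libraries come from separate cultures of 3 mice per genotype. Replicates of a group differed by more than sampling noise. The floor of 3 counts is a reference level and takes no account of the spread between libraries. The script was tested on simulated data. Alternatives used DESeq2 1.42.0 and limma 3.58.1, other scalings and filters, the compared groups alone, a replicate block, and each library left out.

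Seed matches and gene positions come from GENCODE M21, of the same build. The factors and lists were chosen with earlier results of these data known. All 10 factors are named. From each companion list, up to 2 genes higher and 2 lower are named in the LPS response in WT and in KO against WT in each state, those with the largest change among genes called, with libraries that do not overlap and a mean log2 CPM of 1 or more. The 3 genes most like each factor are named by Pearson correlation of log2 CPM over the 18 libraries, and for Fos also by that of deviations from group means. Other genes were named after their values were seen.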

Additional observations from a re-analysis of the deposited data

How the results depend on the processing

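The count of factors called changed most for the resting KO and 3′F libraries that stood apart. Leaving out both, a choice made after seeing the data, gave 5 of 9 factors for the LPS response in WT (3 in the analysis as reported), 3 for KO against WT resting (0), 2 for KO against WT with LPS (1), 0 for KO against 3′F resting (1), 2 for KO against 3′F with LPS (0) and 1, Fos, for the LPS response of KO minus that of WT (0). Beside these stood 41.9%, 14.6%, 14.2%, 6.56%, 12.2% and 0.289% of all genes (28.5%, 9.40%, 4.79%, 12.9%, 3.88% and 0.00881% as reported). limma-voom quality weights gave 5 for the LPS response in WT, 5 in 3′F, 2 for KO against WT resting, 2 and 2 for KO against 3′F resting and with LPS, and 1 for KO minus WT. Of 11357 genes these weights called 5218, 5478, 2259, 2916, 1842 and 57 there. The analysis as reported called 3240, 3546, 1067, 1464, 441 and 1. With the compared groups alone the counts were 5 in WT, 3 in KO (5), 0 for KO against 3′F resting and 2 with LPS. That setting called 3551 of 10963, 2510 of 10950, 16 of 10944 and 1661 of 10916 genes there. Library size alone gave 0 for KO against 3′F resting, beside 1431 of 11357 genes, and it moves the log2 LPS responses by −0.26 in WT, −0.28 in KO and −0.20 in 3′F. DESeq2 gave 1 for KO against 3′F with LPS, beside 801 of 11357 genes. Leaving out 1 library at a time gave 0 to 3 for the LPS response in WT (0 without LPS replicate 3), 3 to 5 in KO, 2 to 4 in 3′F, 0 to 2 for KO against WT resting (2 without resting KO replicate 3), 0 to 1 with LPS, and 0 to 1 for KO against 3′F resting. Every remaining count over the alternatives was within 1.5 times that reported. No called log2 fold change of a factor changed sign under any alternative run. Fos in KO against WT resting, not called, went from 0.17 to −0.08 without resting KO replicate 1.

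With a replicate block on the replicate number the LPS response in WT had 4 factors, Egr2 added, and KO against 3′F with LPS had 1, Fos, and the block changed no other call. The labels do not tie a number to an animal. Same-numbered resting and LPS libraries of a genotype had correlated deviations from their group means (r from 0.03 to 0.32 in 9 pairs, over 0.1 in 5), and 8 of 9 resting libraries correlated best with their own number. Same-numbered libraries of different genotypes had r from −0.29 to 0.21 in 18 pairs, over 0.1 in 4. Without division by exon length the mean share of Fos in its family was 78.9% in resting WT, 71.7% in WT with LPS and 54.0% in KO with LPS. The 3 libraries per group limit the precision throughout, and for Fosb with LPS and for Fosl1 the low counts do.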
